A study of Mus musculus with 20 samples.

Results

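The sites described here are cytidines that were read as edited in both the cortex and the hippocampus of the same mice, so that each has 1 editing level per region. They were selected on the deposited lists: a site had to be listed at the same chromosome, position and strand in both regions, with both editing levels under 35%. Of 9379 sites in both lists, 9228 met this rule, in 1908 genes, and the other 151 had 1 or both levels at or over the limit. The cortical list held 17878 sites, the hippocampal list 13461, and the lists of all 3 regions together 25978 different sites. Since the rule reads the levels themselves, everything below on these levels is a description and no test was made.

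The mice carried a tamoxifen-inducible APOBEC1-YTH transgene. Its promoter, the cells that express it and the age, sex and strain of the mice were not given in the sources used here. All groups, the controls included, received tamoxifen at 20 mg/kg every 24 h for 5 days, and tissue was collected 7 days after the last dose. Poly(A) RNA was sequenced from 4 APOBEC1-YTH cortices and the hippocampi of the same 4 animal numbers, and site calling used APOBEC1-YTHmut mice (3 cortices and 2 hippocampi) as the background for C-to-U edits. Each region has 1 list for its animals together, read here as pooled, with no value per animal, no APOBEC1-YTHmut value and no read depth. A spread between animals therefore could not be computed, and intervals below are 95% intervals over sites or genes taken as independent, which do not cover animals or read counting. In bulk tissue, a different mix of cell types and a different share of methylated transcripts within a cell cannot be told apart. Transcript abundance was not analysed here.

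N6-methyladenosine (m6A) is a methyl mark that the METTL3 complex places on adenosines of messenger RNA, mostly in a DRACH sequence and often near the stop codon and in the last exon. Reader proteins with a YTH domain bind it and affect the decay, translation and transport of the transcript, and in the brain it has been tied to synaptic function, learning and neurogenesis. In APOBEC1-YTH a cytidine deaminase is brought to m6A by the YTH domain, and since an m6A is almost always followed by a cytidine, that cytidine is read as uridine. An editing level is thus the share of reads with the edit, a proxy for methylation and not the share of methylated transcripts.

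Sequences could be read for the 22 member sites, in 15 genes, that lay inside a window of 300 nt at the annotated start of another gene. They are shown for the letters around the edited C. All are from RefSeq (GRCm38.p6, the assembly of mm10), on the strand of the edited transcript, 21 nt long, and the capitals mark the edited C and the A before it.
Lhx2 site 1, chr2:38369010-38369030, + strand: acagacttgACtagccccacc
Lhx2 site 2, chr2:38369034-38369054, + strand: ccgactgtgACgtcagtctta
Lhx2 site 3, chr2:38369046-38369066, + strand: tcagtcttaACttctgtgcct
Arpc4 site 1, chr6:113389011-113389031, + strand: gtcccctggACcgggacagac
Arpc4 site 2, chr6:113389050-113389070, + strand: gaaacctaaACtctgtgcttg
Arpc4 site 3, chr6:113389068-113389088, + strand: ttgtagaagACtgtaaccttt
Mpped1 site 1, chr15:83856278-83856298, + strand: cctatgtgaACgcgtcggtgt
Mpped1 site 2, chr15:83856299-83856319, + strand: gcactgtgaACtatcagcctg
Sdf4, chr4:156013519-156013539, + strand: gctcttctgACttccctgggc
Dnajc30, chr5:135064983-135065003, + strand: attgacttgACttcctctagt

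All 22 of these sites were a C preceded by A, the place of an m6A next to it, with GAC at 16 and AAC at 6. For comparison, 9.10% of all C in the 32851 RefSeq windows of this length, read on the strand of each window's gene, followed GA or AA, and 18.2% followed any A. The base after the edited C was T at 12 sites, C at 6, A at 2 and G at 2. Matching letters are a description of these windows and do not show that each A is methylated. Whether the lists were filtered for such a motif is not stated in the sources used here. The comparison therefore cannot show a preference of the editing.

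These transcripts also show how close sites of unlike ratio can lie. In Arpc4, a subunit of the actin-nucleating Arp2/3 complex, site 1 stood at 2.76% in cortex and 1.20% in hippocampus, site 2 at 2.7% and 2.66%, and site 3 at 1.08% and 2.63%. From the first to the last, the log2 ratio of hippocampus to cortex was thus -1.20, -0.02 and 1.28. In Lhx2, a LIM homeodomain factor of forebrain patterning, the 3 sites stood at 3.15%, 2.61% and 2.42% in cortex and at 2.67%, 4.51% and 2.80% in hippocampus. The Sdf4 site was nearly equal in both regions (16.25% and 15.96%), and the Dnajc30 site was the highest of the printed ones to differ by over 1.5-fold (8.06% in cortex, 14.74% in hippocampus). The Mpped1 sites gave 2.52% and 2.27% at the first and 1.79% and 3.92% at the second, so neighbours in the same transcript stood on opposite sides of equality.

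Across all members the regions had nearly the same levels. The median level was 3.33% in cortex (quartiles 2.11% and 5.44%) and 3.29% in hippocampus (2.11% and 5.38%). The median log2 ratio was -0.02 (-0.03 to -0.00), with an SD of 0.71 over sites, the tenth and ninetieth percentiles at -0.92 and 0.89, and a range from -3.46 to 2.46. Hippocampus was higher at 4474 sites (48.5% of 9228), cortex at 4721, and 33 were equal. At least 2-fold higher in hippocampus were 689 sites (7.47%) and at least 2-fold lower 761 (8.25%), while 60.3% of sites lay within 1.5-fold and 54 sites differed by 4-fold or more. These shares are the background for the counts per gene that follow.

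**Figure D1:**
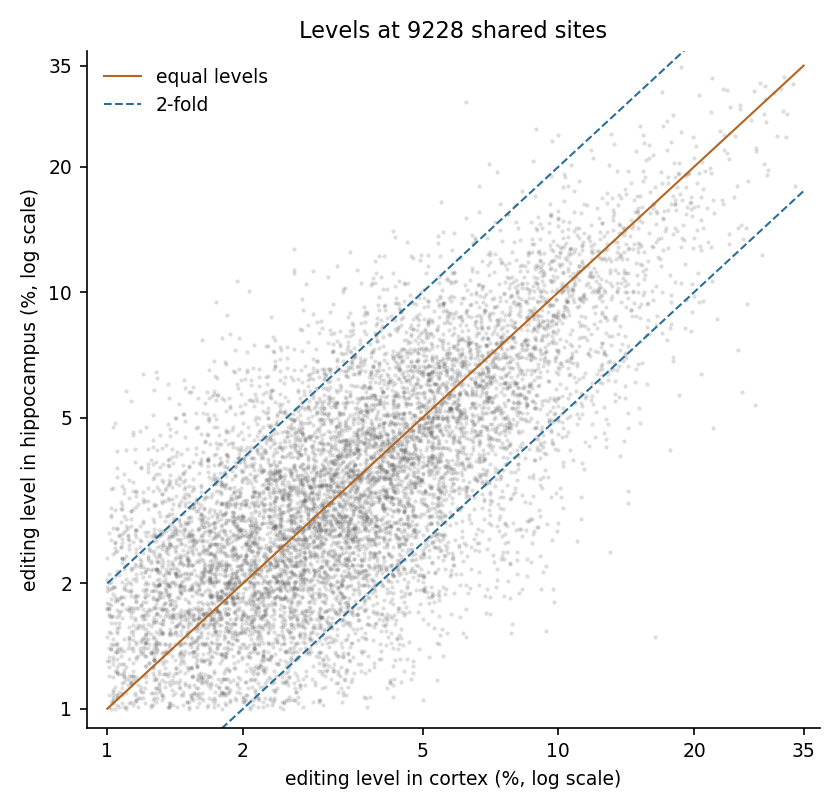
Editing level of each of 9228 shared sites in cortex (x axis, %, log scale) and hippocampus (y axis, %, log scale); each point is 1 site. The points scatter evenly about the line of equal levels, and 84.3% of them lie between the dashed 2-fold lines.

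The order of sites by level was broadly kept, with a Spearman correlation of 0.70 across the 9228 sites, which share libraries, transcripts and the listing floor of 1%. A level of 10% or more was reached by 696 sites in cortex and 640 in hippocampus, 417 of them in both. In percentage points the median absolute difference was 1.05. A gap of 5 points or more was found at 186 sites with the higher level in hippocampus and 285 with the higher level in cortex, and a gap of 10 points or more at 15 and 31. Large gaps in points were therefore more often on the cortical side, although the ratios were almost balanced.

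The spread of the ratio depended on the level. By the geometric mean of both levels, the SD of the log2 ratio was 0.64 at 1 to 2%, 0.78 at 2 to 3%, 0.76 at 3 to 5%, 0.65 at 5 to 10%, 0.55 at 10 to 20% and 0.38 at 20 to 35%. In the lowest class a level under 1% cannot appear, which bounds the ratio. In the highest class no level of 35% or more can appear, which bounds it too and leaves little room for a 2-fold gap. None of the 52 sites at 20 to 35% differed by 2-fold or more, against 19.9% of the 2262 sites at 2 to 3%. The share of sites higher in hippocampus went from 53.1% at 1 to 2% to 44.6% at 10 to 20%. Whether fewer reads per site or biology sets the wider scatter at low levels was not tested, since depth is unknown.

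The limit of 35% was a plain threshold in a thin tail. Just inside it were Ivd (18.75% in cortex, 34.78% in hippocampus), Dact3 (33.56% and 18%), Ddn (33.14% and 31.68%) and Ncdn (31.61% and 32.84%). Just outside were sites in Zfhx2 (35.56% and 35%), Pyurf (33.33% and 35.19%), Tcf25 (25.86% and 35.59%) and Ntrk2 (29.33% and 35.71%).

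The genes whose sites differed most between the regions were next described by the median log2 ratio over their sites, for the 885 genes with 3 or more member sites, which held 7872 of the members. Genes past 1.5-fold in the median were called higher or lower in hippocampus; this is a rule of size and not a test. By it 46 genes were higher (5.20%) and 54 lower (6.10%), and the other 785 lay within 1.5-fold. With a pseudocount of 1% added to each level, 19 and 22 genes passed, and with at least 5% in the higher region 36 (9.23%) and 47 (12.1%) of 390. The last setting keeps a site with 1 low level only where the other region is high, so it favours large ratios by construction. The gene medians centred on 0.0020 with an SD of 0.37, and 445 lay above 0 and 437 below.

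**Figure D2:**
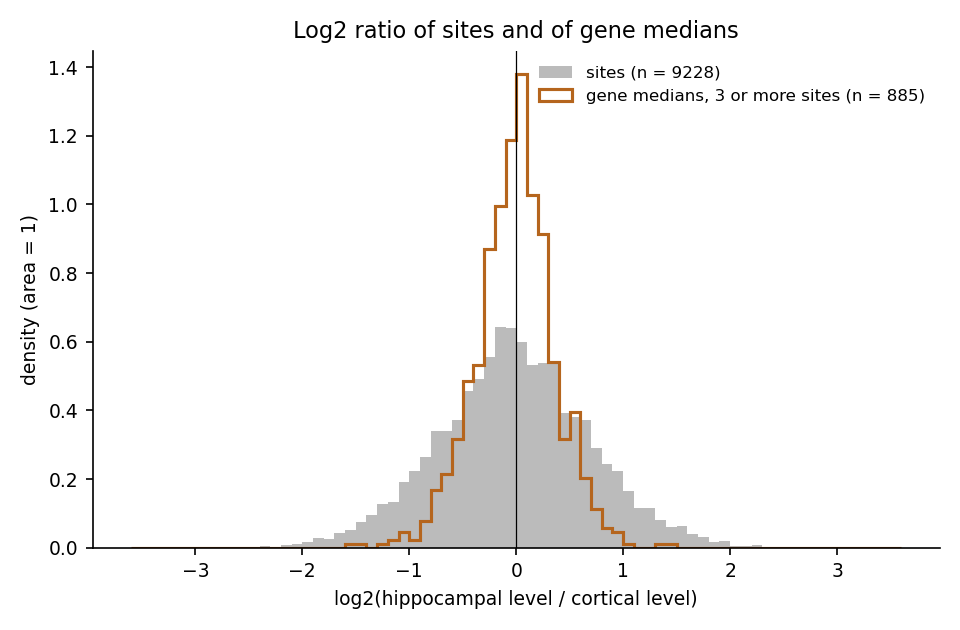
Distribution of log2(hippocampal level / cortical level) over the 9228 member sites (grey bars) and over the medians of the 885 genes with 3 or more member sites (orange line), each scaled to an area of 1. Both are centred near 0, and the gene medians (SD 0.37) are narrower than the sites (SD 0.71).

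Among genes with at least 5 member sites, those with the highest medians in hippocampus included several with neuronal roles. Necab1, a neuronal calcium-binding protein, was higher at 11 of 13 sites with a median log2 ratio of 0.74. Its 13 cortical levels ran from 1.61% to 12.5% and its hippocampal ones from 2.15% to 12.31%. The levels in cortex and hippocampus were 1.74% and 9.47% at the site with the largest ratio, and 4.72% and 2.61% at the lowest. Neto1, an auxiliary subunit of kainate receptors, had levels of 1.90%, 2.40%, 4.71%, 4.08%, 2.86%, 3.30% and 2.22% in cortex, against 4.35%, 3.91%, 8.33%, 2.78%, 6.45%, 2% and 4.76% in hippocampus. Hippocampus was higher at 5 of these 7 sites, and the median was 0.82. Fam155a, which encodes a subunit of the NALCN sodium leak channel complex, was higher at 7 of 8 sites (median 0.66), with its highest site at 8.33% in cortex and 17.5% in hippocampus. Beyond the shared sites, cortex alone listed 14 sites of Necab1, 2 of Neto1 and 14 of Fam155a. Hippocampus alone listed 1, 4 and 1, and sites listed in 1 region do not enter the medians.

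Skp1a, a subunit of SCF ubiquitin ligases, was the gene of this group with every site higher. It stood at 1.90%, 1.25%, 1.38%, 1.49% and 3.26% in cortex and 2.96%, 2.39%, 1.5%, 3.72% and 5.11% in hippocampus, a median log2 ratio of 0.65. The highest median belonged to the transcription factor gene Elk1 (0.92), but only 3 of its 5 sites were higher. Pigk, of the GPI transamidase that anchors proteins to the membrane, followed with 0.86 and 4 of 6 sites. The others were Serbp1 (0.70), Arel1 (0.64), Bnip3l, a mitophagy receptor (0.63), Strap (0.62), Sobp (0.61) and the potassium channel gene Kcna2 (0.60). In Kcna2 3 of 5 shared sites were higher, and cortex alone listed 16 more sites and hippocampus alone 0. In each of the 12 except Skp1a at least 1 site was lower in hippocampus.

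The lowest medians were further from 0. Ppt1, the lysosomal palmitoyl-protein thioesterase, had levels of 3.17%, 4.42%, 1.97%, 3.10% and 5.43% in cortex and 1.23%, 2.13%, 2.20%, 1.41% and 1.43% in hippocampus, and a median of -1.14. The hippocampal level was lower at 4 of the 5 sites. Wfs1, an endoplasmic reticulum protein and a known marker of CA1 pyramidal cells, had levels of 4.88%, 5.13%, 4.76%, 4.49%, 3.81%, 7.69% and 1.87% in cortex. The hippocampal levels at these sites were 2.09%, 3.85%, 2.7%, 1.85%, 1.84%, 2.38% and 2.67%. Hippocampus was thus lower at 6 of 7 sites, all but the one with the lowest cortical level, and the median was -1.05.

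Other genes of the lower side were also lower at most of their sites. Nr2f1, a nuclear receptor that patterns cortical areas, was lower at 7 of 8 sites (median -0.71), with 12.5% in cortex and 6.06% in hippocampus at its highest cortical site. Fads1, a fatty acid desaturase, was lower at 7 of 8 (-0.76), Map2, the dendritic microtubule-associated protein, at 7 of 9 (-0.65), and Pkp4, an armadillo protein of cell junctions, at 6 of 7 (-0.66). Lmo3, a LIM-only transcriptional regulator, had a median of -0.73 with a wide spread: 7.29%, 8.18% and 7.5% in cortex stood against 1.96%, 1.90% and 2.60% in hippocampus, while 3 other sites were higher in hippocampus. The rest were Eloc (-0.97), Copg1 of the COPI coat (-0.81), the kinesin gene Kif3c (-0.71), Ogfrl1 (-0.70) and the mitochondrial ubiquitin ligase gene Marchf5 (-0.67). The medians of Ogfrl1 and Strap rested on few sites and changed sign under other settings: Ogfrl1 gave 0.04 over its 5 sites at 2% or more in both regions, and Strap gave -0.03 with sites within 10 nt merged.

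**Figure D3:**
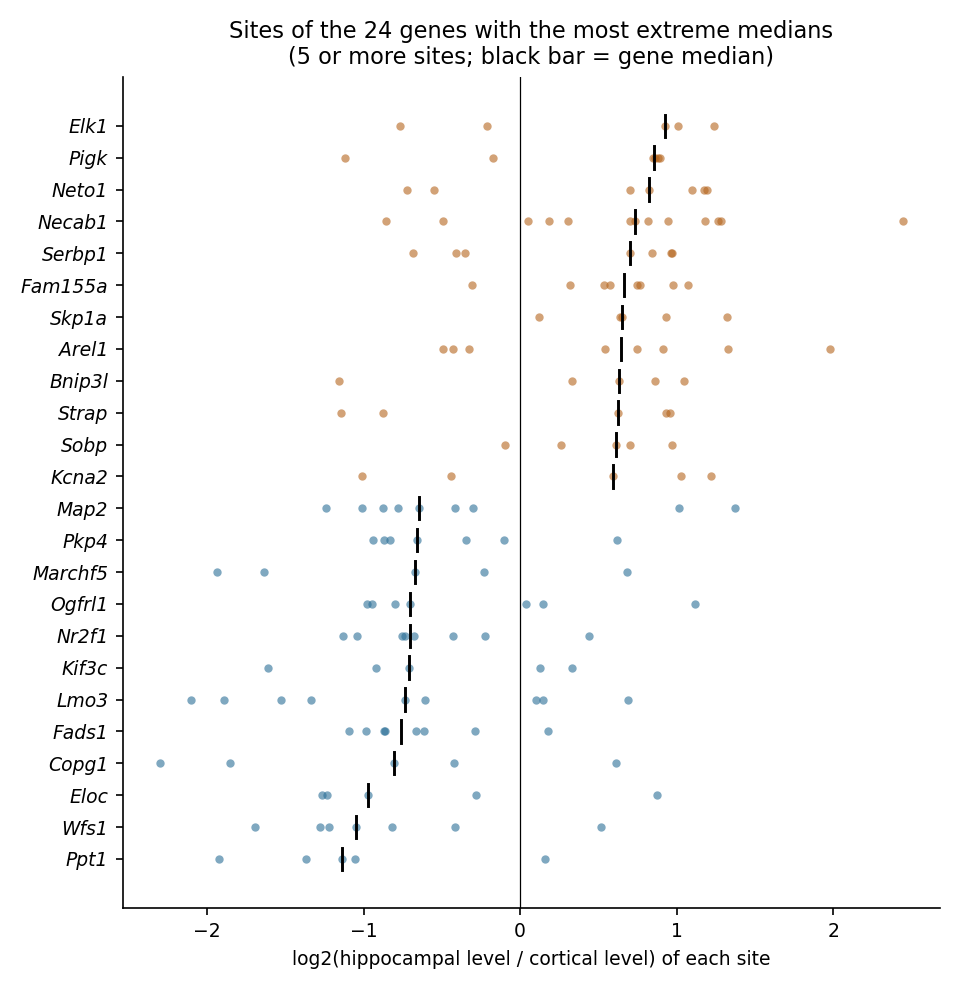
Log2(hippocampal level / cortical level) of every member site (points) in the 12 genes with the highest and the 12 with the lowest median among genes with 5 or more member sites; black bars mark gene medians. In 23 of the 24 genes sites fall on both sides of 0; Skp1a, with 5 of 5 sites above 0, is the exception.

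Sites of the same gene shared little of their ratio. Over the 885 genes, 4.41% of the variance of the log2 ratio lay between genes, with an SD of 0.15 between and 0.69 within them. With at least 5% in the higher region, which favours large ratios by construction, this share was 8.37%, over 2381 sites. In all, 196 genes held both a site at least 2-fold higher and one at least 2-fold lower, and in 307 genes every site was within 2-fold. All sites lay on 1 side in 76 genes, 31 higher and 45 lower, and none of these had more than 7 sites. The gene with 7 was Eif4g3, a translation initiation scaffold, at 2.84%, 2.29%, 11.11%, 3.33%, 2.7%, 4.23% and 4.88% in cortex and 1.46%, 2.25%, 10.71%, 2.04%, 2.05%, 3.14% and 2.20% in hippocampus. Its median was -0.43, within 1.5-fold. Of the 335 genes with 8 or more member sites, none had all of them on the same side.

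Pairs of sites within a gene were little alike except when very close. At 1 to 5 nt apart, 55.3% of 488 pairs had ratios of the same direction, with a pair correlation of 0.22. At 6 nt and beyond the shares ran from 50.5% to 53.5% and the correlations from 0.02 to 0.06, and for pairs in different genes the share was 49.7%. Reads that cover both sites are shared by close pairs, and their part in the likeness was not tested. Merging sites within 10 nt left 4.64% of the variance between genes.

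This weak gene component was smaller than in comparisons with cerebellum. At the 3827 sites of 491 genes with 3 or more sites under 35% in all 3 lists, 4.68% of the variance lay between genes for hippocampus against cortex, 29.3% for cerebellum against cortex and 28.0% for cerebellum against hippocampus. The SD within genes was 0.67, 0.78 and 0.77 in that order, and the SD between genes 0.15, 0.50 and 0.48. Gene medians past 1.5-fold in either direction numbered 52 of 491 (10.6%), 166 (33.8%) and 175 (35.6%). The comparisons share their lists and are given side by side; no test of their difference was made. The next counts use all sites under 35% in both lists of a pair, not only those in all 3 lists. Of genes with 8 or more such sites, 13 of 226 had every site on 1 side for cortex and cerebellum. For hippocampus and cerebellum 9 of 185 did.

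**Figure D4:**
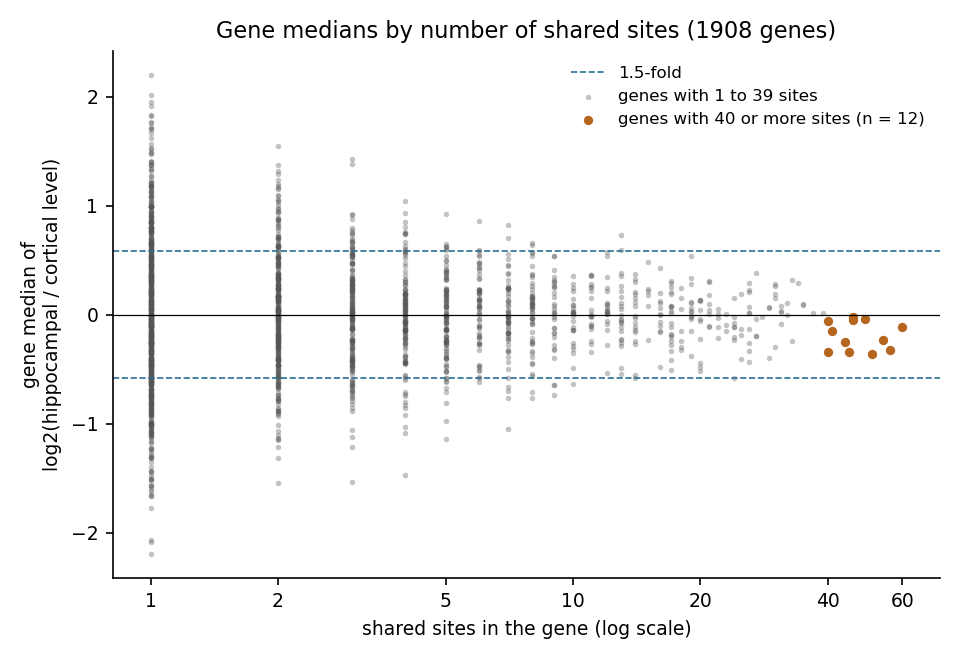
Median log2(hippocampal level / cortical level) of each of 1908 genes (y axis) by its number of member sites (x axis, log scale); dashed lines mark 1.5-fold. The scatter narrows from an SD of 0.73 at 1 site to 0.13 at 40 or more, where all 12 genes (orange) lie below 0.

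Genes with more sites had medians nearer 0, as a median of more values scatters less, with an exception at the far end. The SD of gene medians was 0.73 for the 690 genes with 1 site, 0.46 at 3 to 4 sites, 0.25 at 10 to 19 and 0.22 at 20 to 39. None of the 86 genes with 20 or more sites passed 1.5-fold. The 12 genes with 40 or more sites all had medians below 0, with a median of -0.19 (-0.34 to -0.05), and 37.6% of their 572 sites were higher in hippocampus. At 20 to 39 sites, 38 medians lay above 0 and 36 below. This grouping was made after the values were seen.

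These 12 transcripts have different functions. Celf4, an RNA-binding protein of neurons, had 60 member sites with a median of -0.12. The long noncoding RNA Oip5os1, also called Cyrano, had 56 sites, 38 of them lower in hippocampus (median -0.33), and mean levels of 6.37% in cortex and 5.43% in hippocampus. Paqr8, a membrane progesterone receptor, was lower at 34 of 51 sites (-0.36), with means of 7.08% and 5.63%. Zbtb18, a transcriptional repressor of cortical development, was lower at 33 of 45 (-0.35), and the imprinted noncoding RNA Peg13 at 32 of 44 (-0.25). Prkce, a protein kinase C, was lower at 35 of 54 (-0.23), and Panx2, a pannexin channel, at 27 of 40 (-0.34). The astrocytic glutamate transporter Slc1a2 was lower at 24 of 41 (-0.15).

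The remaining 4 were nearly even. Myo5a, an actin-based motor, had 20 sites on each side (-0.05), Ids, a lysosomal sulfatase, 24 higher and 25 lower (-0.04), Map1b 19 and 24 (-0.05), and Purb 20 and 25 (-0.02). By level, 25.9% of the 135 sites of the 12 genes at 5 to 10% were higher in hippocampus, against 48.0% of 1740 sites of other genes. At 3 to 5% the shares were 32.1% of 165 and 48.3% of 2444, and at 1 to 2% they were 52.5% of 99 and 53.2% of 1791. At 10 to 20% they were 38% of 50 and 45.3% of 490, and at 20 to 35% none of 4 and 52.1% of 48. From 3% upwards the share was thus lower in the 12 genes than in the others, and at 1 to 2% it was close to theirs.

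Among other genes with 20 or more sites, the lowest medians were in Spop, a ubiquitin ligase adaptor (-0.58, 18 of 24 sites lower), Srgap3, a GTPase-activating protein (-0.52, 15 of 20), Fhl1 (-0.48, 16 of 20) and Adcy1, the calcium-stimulated adenylyl cyclase (-0.44, 14 of 20). The highest were in Rasgrp1, a Ras activator (0.38, 17 of 27 higher), Ntrk2, the BDNF receptor (0.32, 19 of 33), Agpat3 (0.31, 14 of 21) and Gria1, an AMPA receptor subunit (0.30, 12 of 21).

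The largest differences at single sites came from genes with medians on either side of 0. Of the 12 genes with the largest gap towards hippocampus, 10 had more than 1 site, and 6 of these 10 had a median above 0. Of the 12 with the largest gap towards cortex, 11 had more than 1 site, and 6 of these 11 had a median below 0. Aqp11, an intracellular aquaporin, had the largest gap towards hippocampus: cortical levels of 5.56%, 11.11%, 3.28%, 15%, 6.06%, 14.04%, 12.28% and 6.25% stood against 9.43%, 14.29%, 8.06%, 10%, 12.07%, 5.95%, 6.49% and 28.57%. The last of these sites (chr7, position 97737749, - strand) differed by 22.3 points, while 3 others were lower in hippocampus. Large gaps towards hippocampus were also found in Ntrk2 (8.93% and 24.64%) and Gabra5 (9.68% and 23.11%), whose medians were above 0, and in Scn1a (10% and 23.86%), whose median was below it. Tmem184c had a site at 7.02% and 20.34% although 10 of its 12 sites were lower in hippocampus, and Panx2 one at 7.32% and 19.44% against 27 of 40 lower. Other sites far higher in hippocampus were in Ivd, a mitochondrial leucine-breakdown enzyme (18.75% and 34.78%), Pbxip1 (16.95% and 30.23%), Peg3 (8.77% and 20.65%), Pds5b (6.67% and 18%) and Coa5 (5.49% and 16.44%).

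Towards cortex the genes were mixed as well. Col25a1, a transmembrane collagen, had 2 member sites, both lower in hippocampus, the larger at 27.27% and 5.36% (chr3, position 130595540). The site of Slitrk1, a synaptic adhesion protein, stood at 25.49% and 5.77%, and 5 of its 7 sites were lower. By contrast, Meis2 (25% and 7.27%), Tug1 (22.03% and 4.71%), Slc24a3 (26.15% and 9.38%) and Abat, the GABA transaminase (16.42% and 1.49%, the lowest log2 ratio of all members at -3.46), had gene medians above 0. Shroom2 (28.36% and 12.28%) and the neurofilament gene Ina (22.45% and 8.64%) had medians of -0.43 and -0.41. The rest were Adam23, Caln1, Dact3 and Rexo2, with gaps of 12.3 to 15.6 points.

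Some genes of 8 or more sites held very mixed ratios. Rock2, a kinase of the actin cytoskeleton, ranged from -0.44 to 1.997 over 8 sites, the nuclear protein gene Glyr1 from -1.73 to 1.98 over 10, with 5 on each side, and the synaptic adhesion gene Cadm2 from -1.90 to 1.38 over 12. In 7 genes the sites fell into separate stretches of 5 or more sites, over 5 kb apart. In Map3k10 the upstream stretch of 5 sites had a median of 0.33 and the downstream one of 10 sites -0.21, and in Hivep2 these were -0.41 (5 sites) and 0.33 (11 sites). In Ntrk2 both were above 0, 0.34 over 10 sites and 0.17 over 23. Ids, Adgrl1, Ilrun and Kcnc1 differed by 0.09 to 0.39 between stretches. These splits were chosen after the values were seen.

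Position in the gene showed little. Gene spans were available for 1890 of the 1908 genes, 1875 of them protein-coding and 14 long noncoding RNA genes, and the median distance of a site from the annotated 3′ end, along the genome, was 1469 nt. In 7 classes of distance the median log2 ratio ran from -0.06 (beyond 20000 nt, 216 sites) to 0.03 (5000 to 20000 nt, 730 sites). By chromosome, the lowest median was on chromosome 19 (-0.20 over 266 sites, with 25 of 32 gene medians below 0) and the highest on chromosome 7 (0.09 over 554 sites, 40 of 56 above 0). On chromosome X the median was -0.11 over 367 sites.

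Gene families were then described by gene medians, for 36 overlapping lists of symbols. The centre of all 885 genes (0.0020), the 445 of them above 0 and their shares past 1.5-fold (5.20% higher, 6.10% lower) are the comparison for each list. Scaling the lists to equal medians adds 0.02 to every ratio and turns the sign of the family median for small GTPases, and of no other family with 3 or more genes.

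**Figure D5:**
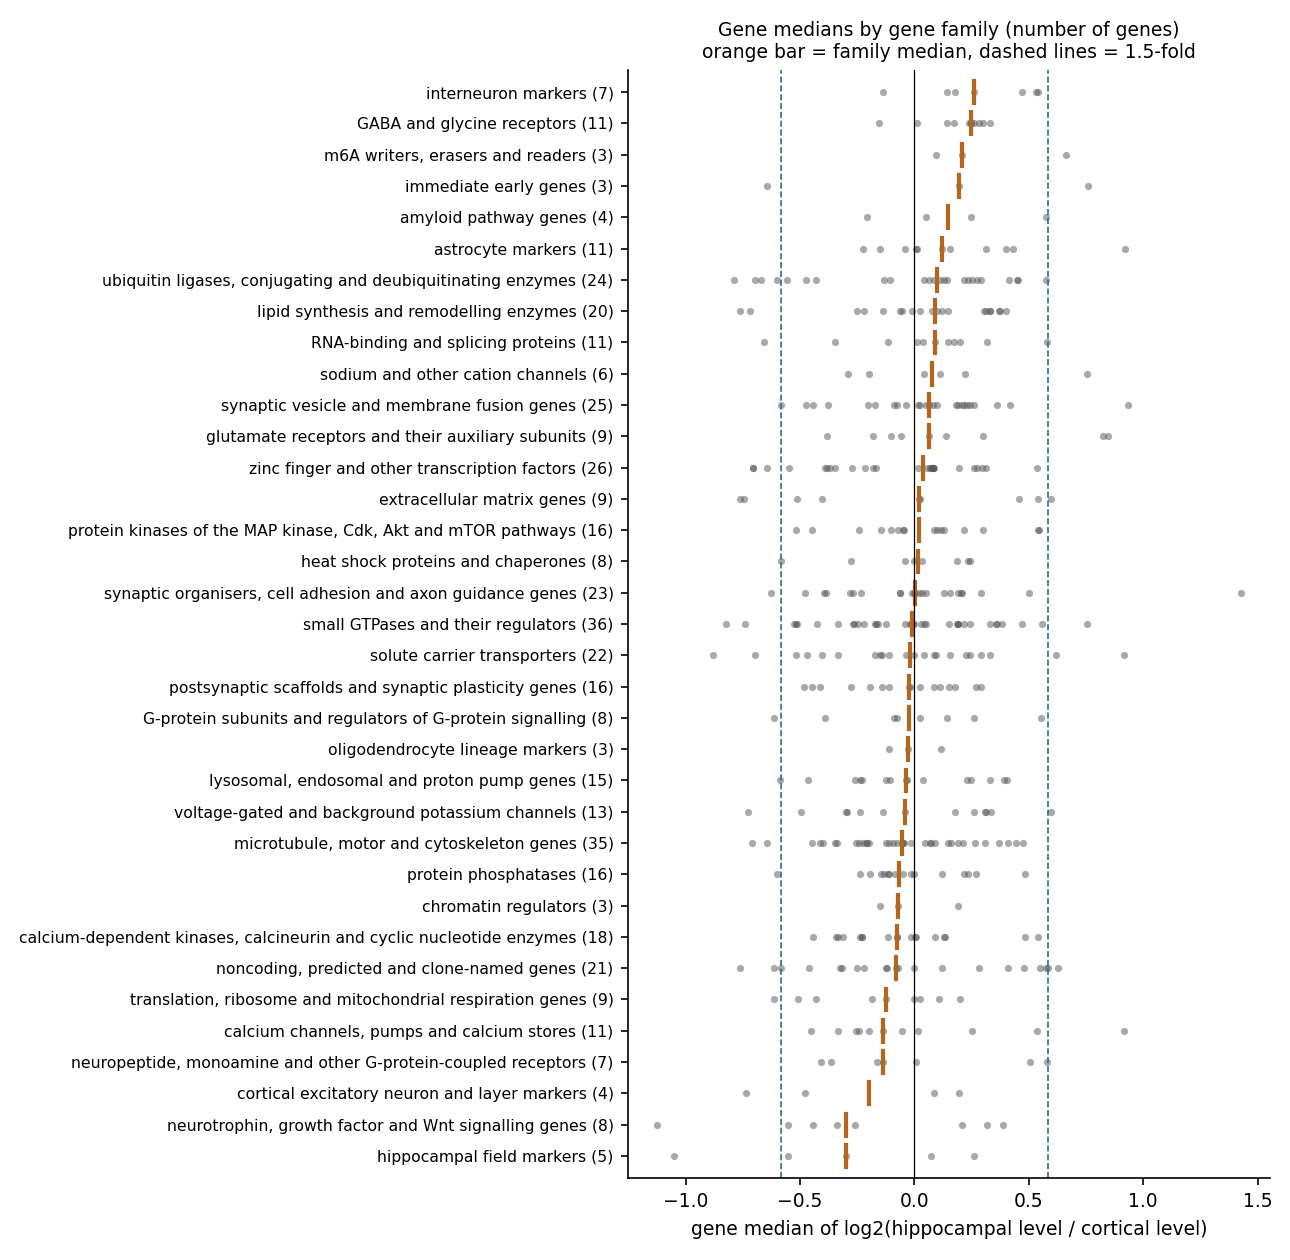
Gene medians of log2(hippocampal level / cortical level) for 35 gene families with 3 or more measured genes; each point is a gene with 3 or more member sites, orange bars are family medians and dashed lines mark 1.5-fold. Family medians run from -0.30 (hippocampal field markers) to 0.26 (interneuron markers), and every family except that of the m6A pathway has genes on both sides of 0.

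Of the receptors, those for GABA and glycine lay mostly above 0. Of 11 genes, 10 had medians above 0 and none passed 1.5-fold (family median 0.25). The GABA-A subunit genes Gabra3 (0.28, 11 of 19 sites higher) and Gabra5 (0.26, 5 of 9) and the GABA-B receptor genes Gabbr1 (0.25, 5 of 7) and Gabbr2 (0.24, 4 of 7) stood close together. Glrb, the glycine receptor beta subunit, was the gene below 0 (-0.16). Over the 84 sites of the family 57.1% were higher in hippocampus, against 48.5% of all members. Sites past 2-fold were common on both sides, with 12 higher (14.3%, against 7.47% of all members) and 10 lower (11.9%, against 8.25%).

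Glutamate receptor genes differed among themselves. Auxiliary subunits were at the top, with Shisa7 (0.85, 3 of 4 sites) and Neto1 (0.82) past 1.5-fold, and of the AMPA receptor subunits Gria1 was above 0 (0.30), Gria2 near it (-0.06, 12 of 20 sites lower) and Gria3 below (-0.38, 15 of 19 sites lower). Grm5, a metabotropic receptor, had 8 sites on each side (0.06). In all 5 of 9 genes lay above 0 (family median 0.06). Of G-protein-coupled receptors 3 of 7 genes lay above 0 (-0.14), among them Gpr158 (0.51, 5 of 7 sites) and the adenosine receptor gene Adora1 (0.01). Of G-protein subunits and their regulators 4 of 8 lay above 0, with Gnao1 at 0.55 and Rgs4 past 1.5-fold lower (-0.61, all 3 sites).

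Ion channel genes spread to both sides. Of 13 potassium channel genes 6 lay above 0 (median -0.04). Kcnq3 and Kcnq5, subunits of the M-current, stood at 0.31 and 0.32. Kcnd2, the A-type channel of dendrites, was lower at 13 of 18 sites (-0.30), and the glial channel gene Kcnj10 at 20 of 30 (-0.30). Past 1.5-fold were Kcna2 (0.60) and Kcnmb4, the neuronal beta subunit of BK channels (-0.73, all 4 sites lower). Of 6 sodium and other cation channel genes 4 lay above 0 (0.08): Scn2a was higher at 14 of 19 sites (0.11), Scn8a at 9 of 15 (0.22), and Scn1a was lower at 15 of 27 (-0.20).

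Calcium handling genes lay on both sides of 0. Of 11 genes for calcium channels, pumps and stores 4 lay above 0 (median -0.14). Of 18 for calcium-dependent kinases, calcineurin and cyclic nucleotide enzymes 7 did (-0.07), against 445 of all 885 genes. Over all member sites of these lists 44.3% of 106 and 45.5% of 325 were higher in hippocampus, near the 48.5% of all members. The plasma membrane pump gene Atp2b2 was lower at 22 of 33 sites (-0.24) and Atp2b1 higher at 10 of 17 (0.25). The catalytic subunit genes of calcineurin also parted: Ppp3ca was lower at 19 of 24 sites (-0.12) and Ppp3cb higher at 11 of 15 (0.49). Camk2a, the alpha subunit of the kinase of synaptic plasticity, was even (11 sites higher, 13 lower, -0.07), Pde1a was higher at 15 of 19 (0.54), and the sodium/calcium exchanger gene Slc8a2 was past 1.5-fold (0.92, all 3 sites) while Slc8a1 stood at -0.33.

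At the presynapse 16 of 25 vesicle and fusion genes lay above 0 (median 0.07). Of the 317 sites in all 40 genes of this list with a member site, 24 were at least 2-fold higher (7.57%, against 7.47% of all members). At least 2-fold lower were 9 (2.84%, against 8.25%). Synaptotagmin Syt1, the calcium sensor of release, was higher at 17 of 21 sites (0.18), the lipid phosphatase Synj1 at 24 of 35 (0.10), Rab3c at 20 of 30 (0.19), Sv2b at 19 of 30 (0.26) and Syngr1 at all 5 (0.42). Against them Snap25, a SNARE, was lower at 19 of 24 sites (-0.20) and the active zone genes Rims1 (-0.38, all 4 sites) and Bsn (-0.58, 5 of 6) were lower too. Stx12, an endosomal syntaxin, was the gene past 1.5-fold (0.93). The levels of most of these genes thus differed by little, though in 1 direction for many sites of Syt1 and Synj1.

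At the postsynapse 7 of 16 genes lay above 0 (median -0.02) and none passed 1.5-fold. Frrs1l, an AMPA receptor biogenesis factor, stood at 0.29 over 34 sites and Ddn at 0.11 over 32, while the scaffold genes Dlg4 (-0.19), Dlgap1 (-0.45, all 4 sites lower) and Shank1 (-0.02) did not lie above 0. Among synaptic organisers and adhesion genes 12 of 23 lay above 0 (0.0035). Nrxn3 (0.15 over 30 sites) was above it and Nrxn2 past 1.5-fold lower (-0.63, all 3 sites), and Cntnap2, a neurexin relative, had the highest gene median of all measured genes of this family (1.43), from 3 sites.

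Growth factor and Wnt genes included several with lower hippocampal levels. Of 8 genes 3 lay above 0 (median -0.30). Igfbp5, an IGF-binding protein, was lower at 11 of 14 sites (-0.55): sites at 12.99%, 15.15%, 12.61% and 8.97% in cortex stood at 2.38%, 4.85%, 4.60% and 2.73% in hippocampus, while its highest site was almost equal (20.31% and 18.27%). Apc, of the beta-catenin destruction complex, was lower at 17 of 26 sites (-0.34), and Ctnnb1, beta-catenin itself, at all 3 (-0.44). Beyond the shared sites, cortex alone listed 72 sites of Apc and hippocampus alone 0. Fgf1 was past 1.5-fold (-1.12 over 3 sites). Ntrk2 was the main gene on the other side.

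Intracellular signalling families were balanced. Of 16 kinase genes of the MAP kinase, Cdk, Akt and mTOR pathways 8 lay above 0 (0.02), with Map2k4 lower at 11 of 14 sites (-0.24) and Akt1 at 5 of 6 (-0.52). Of 16 phosphatase genes 6 lay above 0 (-0.07) and of 36 genes for small GTPases and their regulators 16 (-0.01, and 0.01 after scaling). Of 24 genes of the ubiquitin system 15 lay above 0 (0.10), among them Usp46, a deubiquitinase of AMPA receptors (0.58, 9 of 12 sites) and Fbxl16 (0.41, all 5). Past 1.5-fold lower on the list were Marchf5, Ube2l3, Trim32 and Trim8, the last 3 with 3 sites each. Skp1a and the ubiquitin ligase gene Arel1, which the list does not hold, were past it higher.

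Nuclear and RNA-binding factors also fell on both sides. Of 26 transcription factor genes on the list, which does not hold Elk1 or Jun, 14 lay above 0 (0.04). Nr2f1, Bhlhe22 (-0.71, 3 of 4 sites lower) and Egr3 were past 1.5-fold lower, while Elk1 (0.92) and Jun (0.76) were past it higher. Klf9 was lower at 7 of 8 sites (-0.27) and Tef, a clock output factor, at 6 of 7 (-0.22), both within 1.5-fold. Among immediate early genes Jun was past 1.5-fold higher (1.72%, 3.11%, 1.72% and 1.21% in cortex, 6.84%, 5.93%, 2.58% and 1.03% in hippocampus, median 0.76), Egr3 past it lower (-0.64, 6 of 9 sites lower) and Nr4a2 at 0.20. Of 11 RNA-binding protein genes 8 lay above 0 (0.09), with Hnrnpk at 0.58 and Mbnl2 at -0.66. Of 3 chromatin genes 1 lay above 0 (-0.07).

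Transcripts of the m6A pathway were themselves edited. Ythdf2, a reader that promotes decay, had 12 member sites, 8 of them higher in hippocampus (median 0.10). Prrc2a, another reader, was past 1.5-fold with 1.10%, 1.85% and 1.35% in cortex and 1.74%, 2.48% and 2.38% in hippocampus (0.66), all 3 sites higher at low levels. Prrc2b stood at 0.21 over 3 sites, and the nuclear reader gene Ythdc1 had 1 site at 1.83% and 1.35%. Of the 19 sites of the family 68.4% were higher in hippocampus, against 48.5% of all members, and 12 of the 19 were in Ythdf2. At least 2-fold higher were 2 (10.5%, against 7.47% of all members), and none was at least 2-fold lower (against 8.25%). The median cortical level of these sites was 1.92%, near the listing floor of 1%.

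Of 35 cytoskeletal genes 14 lay above 0 (median -0.05), against 445 of all 885 genes. Over the 439 member sites of this list 44.65% were higher in hippocampus, near the 48.5% of all members. The kinesin gene Kif5c was lower at 22 of 29 sites (-0.40), Kifc2 at 10 of 13 (-0.26), Ina at 12 of 17 (-0.41) and Mapt, the tau gene, at 5 of 6 (-0.21), while Ank2 was higher at 18 of 29 (0.07) and Tppp at 21 of 35 (0.09). Past 1.5-fold were Map2 and Kif3c, both lower. Of 15 lysosomal and proton pump genes 6 lay above 0 (-0.04): the pump subunit gene Atp6v1g2 was lower at 19 of 26 sites (-0.26) and the cathepsin gene Ctsb at 14 of 21 (-0.11), and Vps41, of the HOPS tethering complex, was past 1.5-fold lower (-0.59 over 4 sites). The list does not hold the lysosomal enzyme genes Ppt1 (-1.14) and Neu1, a sialidase (-1.53, all 3 sites lower). Of 9 translation and respiration genes 3 lay above 0 (-0.12), with the elongation factor gene Eef1a1 past 1.5-fold (-0.61, all 5 sites lower), and of 8 chaperone genes 4 did (0.02).

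Lipid enzymes and transporters differed by gene. Of 20 lipid enzyme genes 12 lay above 0 (0.09). Of the 194 sites in all 35 genes of this list with a member site, 61.9% were higher in hippocampus, against 48.5% of all members. Plppr4, a synaptic lipid phosphatase-related protein, was higher at 13 of 14 sites (0.38), and Agpat3 at 14 of 21, while Fads1 and Pi4k2a (-0.72) were past 1.5-fold lower. Of 22 solute carrier genes 10 lay above 0 (-0.02), with Slc6a17 higher at 10 of 14 sites (0.33) and the GABA transporter gene Slc6a11 lower at all 3 (-0.70). Of 4 amyloid pathway genes 3 lay above 0 (0.15): App was higher at 14 of 22 sites (0.05), Sorl1 at 12 of 18 (0.25) and Aplp2 at all 4 (0.58). Of 9 extracellular matrix genes 5 lay above 0 (0.02), with Timp2 lower at 19 of 25 sites (-0.40), Lgi1, a secreted epilepsy protein, at all 4 (-0.75), and Sparc higher at all 3 (0.60).

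Markers of cell types were examined, since both tissues mix cells. Expression was not analysed here, so the tissue labels could not be checked against marker levels. Among interneuron markers 6 of 7 genes lay above 0 (median 0.26), including Reln (0.54, all 3 sites), Gad2 (0.47) and the Kv3 channel genes Kcnc1 (0.18) and Kcnc2 (0.26), and none passed 1.5-fold. Of 11 astrocyte marker genes 8 lay above 0 (0.12), with Mlc1 past 1.5-fold higher (0.92, 2 of 3 sites). Of the 136 sites in all 21 genes of this list with a member site, 52.9% were higher in hippocampus, against 48.5% of all members. The list does not hold the glial channel gene Kcnj10 (-0.30, 20 of 30 sites lower). S100b, a calcium-binding protein of astrocytes, was higher at 13 of 16 sites (0.43), with 1.10% in cortex and 5.79% in hippocampus at the site of the highest ratio and 5.26% and 1.90% at that of the lowest, while Slc1a2 stood at -0.15, Slc1a3 at 0.16 and Aqp4 at 0.01. Of 3 oligodendrocyte markers 1 lay above 0 (-0.03), Mobp at 0.12.

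Among 5 hippocampal field markers 2 lay above 0 (median -0.30), Gabra5 (0.26, 5 of 9 sites higher) and Meis2 (0.07, 9 of 17). Wfs1 was past 1.5-fold lower, and Igfbp5 and Kcnd2 lay below 0. Of the 75 sites in all 13 of these marker genes with a member site, 38.7% were higher in hippocampus, 19 were at least 2-fold lower (25.3%, against 8.25% of all members) and 5 at least 2-fold higher (6.67%, against 7.47%). Of 4 cortical excitatory and layer markers 2 lay above 0 (-0.20), with Lmo3 past 1.5-fold lower. Of microglia and vascular markers only Rgs5, a pericyte gene, had 3 or more sites (-0.39). Both of these neuron marker lists thus had family medians below 0, but the 4 cortical genes were evenly split about 0. The share of each cell type in the RNA was not measured.

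Noncoding, predicted and clone-named genes, a list by symbol that can hold coding genes, had 8 of 21 medians above 0 (-0.08). Malat1, a nuclear long noncoding RNA, was higher at 3 of 4 sites (0.58), Tug1 at 6 of 9 (0.41), and Rian, an imprinted transcript, was even (6 higher, 7 lower). Of the 4 with the most sites, Oip5os1 (56 sites), Peg13 (44) and 2900052N01Rik (22 sites, -0.12) lay below 0 and 2900097C17Rik (30 sites, 0.28) above it.

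Sites that are not shared give readings that the rule did not use. Among sites under 35% listed in 1 of these regions alone, the median level was 2.47% over 8400 cortical sites and 1.98% over 4081 hippocampal ones. In genes past 1.5-fold higher, 32.8% (27.5 to 38.4%) of the unshared sites were in the hippocampal list, in genes past it lower 32.9% (27.7 to 38.4%), and in the other genes 35.6% (34.5 to 36.8%). Genes past 1.5-fold higher thus did not have a larger share of sites listed in hippocampus alone than genes past it lower or the other genes. Across 742 genes, however, the gene median and this share rose together weakly, with a Spearman correlation of 0.13. That value is a description over genes that share both lists.

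The cerebellar list held 4826 of the member sites (52.3%). It held 46.3% (42.5 to 50.1%) of the sites at least 2-fold higher in hippocampus, 51.8% (48.2 to 55.4%) of those at least 2-fold lower and 52.9% (51.8 to 54.0%) of those within 2-fold. Members in the cerebellar list had higher levels, with medians of 3.92% in cortex and 3.84% in hippocampus, than the others (2.78% and 2.80%). Where the cerebellar level was also under 35% it lay between those of the other regions at 24.7% of 4819 sites, was the highest at 37.6% and left cortex highest at 33.5% and hippocampus at 29.2%.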

How the data were processed

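Bulk libraries of poly(A) RNA took 900 ng of total RNA and a kit that keeps the strand, per the labels' protocols. The submitters' processing notes name STAR 2.7.5 and mm10. The lists have no header, 1 to a region. The authors made their values, fractions from 0 to 1 (read here as the edited share of reads over a region's libraries together, printed as percent), after calling sites against the APOBEC1-YTHmut background, per the labels. Of the caller, its thresholds and the pooling nothing is stated in those sources, and depth is unknown. No deposited level was below 1%.

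Members were joined on chromosome, end position and strand. The log2 ratio was hippocampal over cortical level with no pseudocount. Medians have order-statistic intervals and shares exact binomial intervals, both 95%. Variance was split by a one-way model, tested on simulated data. Named genes were the 12 highest and 12 lowest medians (5 or more sites), the 10 with most sites, the 12 largest gaps each way, the 6 with the widest quartile range among genes with 8 or more sites and up to 4 a family; other genes in or beside a family were named after their values were seen. Genes known by clone or prediction number were replaced by the next. Some genes that the rule names are left out of the text. The members, 36 symbol lists and rules were chosen with earlier results of these data known. Alternatives changed the limit, a minimum level, scaling, a pseudocount, merging within 10 nt and the sites a gene. Versions were Python 3.11.15 with scipy 1.17.1, pandas 2.3.3, numpy 2.4.6 and matplotlib 3.10.9.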

Additional observations from a re-analysis of the deposited data

How the results depend on the processing

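Levels have no depth and no value per animal, so leaving out a replicate was not possible, and low levels carry an unknown counting error. No paired analysis was possible because each region has 1 pooled list. Without the upper limit, or with a limit of 20%, no summary value moved beyond its interval and no count by 1.5 times.

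With at least 2% in both regions (6158 sites) the median was -0.035, 46.87% of sites were higher in hippocampus, 11.04% were past 2-fold, the SD was 0.62, 25 genes were higher and 32 lower, and 3.98% of the variance lay between genes. With at least 5% in the higher region (3461 sites) these were a median of -0.059, 46.75% higher, 21.3% past 2-fold, an SD of 0.80 and 8.37% between genes. Scaling to equal medians gave a median of -0.00011 and 49.99% higher, by its construction. A pseudocount of 1% gave 6.83% past 2-fold, an SD of 0.54, 19 genes higher and 22 lower, and 4.61% between genes. Merging sites within 10 nt gave 14.8% past 2-fold, an SD of 0.69 and 4.64% between genes; 1 value a gene gave 8.02% and 0.54. With 5 or more sites a gene, of fewer genes, 14 were higher and 18 lower, and 4.57% of the variance lay between genes. A pseudocount shrinks ratios and a higher minimum of sites leaves fewer genes by construction. A minimum for the higher region alone favours large ratios by construction, as a site with 1 low level passes only through the other. For the other moves the cause was not tested.

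Of the 28 named genes past 1.5-fold, 9 stayed past it with the pseudocount. All 28 also kept their sign, but this is no check. Adding the same amount to both levels cannot change the sign of a site's ratio. With sites merged, 23 of 27 stayed past 1.5-fold. With at least 2% in both regions 19 could be measured, of which 13 stayed past it. With at least 5% in the higher region 11 could be measured, of which 10 did. Ogfrl1 changed to 0.039 (at least 2% in both) and 0.15 (at least 5% in the higher), and Strap to -0.034 (merged). Of the 12 genes with 40 or more sites, 11 stayed below 0 with sites merged or with at least 5% in the higher region. All 12 did with at least 2% in both regions and under the other settings. Those others could hardly change the count. A pseudocount keeps the sign of every site, and scaling adds 0.0174, while the median nearest 0 was -0.0219 (Purb). A changed upper limit left 9115 or 9379 sites in place of 9228. These checks of the 12 genes were chosen after seeing the data.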
